A study of Mus musculus with 189 samples.

Results

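The step from the zygote, the fertilized 1-cell egg, to the 2-cell embryo was described here by 14 zygotes and 21 samples of the 2-cell stage, 35 of the 189 samples of the series. Members were chosen by the developmental stage in their labels. All embryos came from superovulated F1 females (C57BL/6 x DBA/2) mated to C57BL6 males. Zygotes were collected after hCG injection, and embryos were cultured (KSOMaa, low oxygen) without further treatment. Whether the profiled zygotes spent time in culture is not stated. Each zygote was 1 cell. The 2-cell samples comprised 11 blastomeres of unnamed embryos (2c.A.bX), 4 named sister blastomeres (2c.A.e1b1, 2c.A.e1b2, 2c.A.e5b1 and 2c.A.e5b2), 3 samples labelled as blastomeres that carry no blastomere number (2c.A.e1, 2c.A.e2 and 2c.A.e3), and 3 samples labelled 2-cell embryo (2c.e1, 2c.e2 and 2c.e3). Blastomeres of one embryo are not independent, so samples of a named embryo were averaged and the 11 unnamed blastomeres were averaged into 1 unit, which left 8 units of the 2-cell stage. The unit 2c.A.e1 joins 2c.A.e1, 2c.A.e1b1 and 2c.A.e1b2 by name, more samples than a 2-cell embryo has blastomeres. The labels do not settle whether 2c.A.e1 came from the embryo of the sisters. The names of 11 zygotes and 18 2-cell samples carry the letter A in the study's sample list, and those of 3 zygotes and the 3 2-cell embryos do not. At the 2-cell stage the letter thus goes together with the kind of sample, blastomere or embryo. What the letter stands for is not given in the sources used here.

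At this step the transcripts stored in the egg are degraded and the embryonic genome starts to be transcribed. Chromatin is rebuilt at the same time, and several of the enzymes involved exist as paralogues with separate expression in oocyte and embryo. The panel covers methyltransferases and demethylases of histones, Polycomb proteins, enzymes of DNA methylation, histone chaperones, and regulators of pluripotency and of the first lineages.

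Transcripts were measured by microfluidic qPCR after preamplification of all targets from the lysed cell. The level of a gene is 30 minus its cycle threshold (Ct), minus the mean of the same value over the control genes Hnrnpr, Ssu72 and Ube2e1. One unit of this log2 scale is 1 PCR cycle, a doubling at full PCR efficiency. A gene was taken as detected where its Ct was below 30, which is not scaled. The mean of 30 minus Ct over the control genes was 11.25 to 14.32 in 15 single blastomeres and 16.60 to 18.10 in zygotes. A missing signal can thus mean a lower level or a lower input, and detection counts cannot tell these apart. Of 192 assays, 156 had passed the quality control of the authors. Between 12 and 19 of them (median 14) were not detected in a zygote, and between 8 and 32 (median 18) in a 2-cell sample. Primers differ in efficiency, so levels are compared between samples and not between genes.

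The genes that mark this step separated the stages. Eif1a, a translation initiation factor known as an early product of the embryonic genome, was detected in 13 of 14 zygotes with a median level of −6.93, and in all 21 2-cell samples, where it lay between −1.12 and 1.16 (median 0.30). Cbx3, which encodes the heterochromatin protein HP1 gamma, was detected in 13 of 14 zygotes, with a median of −6.57 and a highest level of −3.23, and lay between 0.78 and 2.85 in 2-cell samples (median 2.07). With values below −10 set to −10, the difference between the 2-cell stage and the zygote was 7.49 for Eif1a and 8.34 for Cbx3 (limma adjusted p = 2.87e-13 and 6.66e-11). Without this floor the differences were 7.99 and 8.81 (limma adjusted p = 2.55e-07 and 4.37e-07). Cbx1, which encodes HP1 beta, went the other way: its level was between 0.50 and 1.14 in zygotes (median 0.75) and between −2.58 and −0.18 in 2-cell samples (median −1.93). Tet3, the 5-methylcytosine dioxygenase stored in the oocyte, lay between 1.78 and 2.50 in zygotes (median 2.20), whereas its highest level among the 2-cell samples was 0.61 and 1 of them, 2c.A.e1b1, showed no signal. No zygote overlapped with a 2-cell sample in any of these 4 genes. Of the 93 genes detected in all 35 samples, which include Cbx1 but not the other markers, 19 (20.4%) did not overlap. The share among genes that lack a signal in some samples was not counted. ZP3, a zona pellucida protein of the oocyte, was still detected in 20 of 21 2-cell samples, with a median of −0.41 against 0.93 in zygotes.

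Of the 156 genes 110 changed (70.5%; limma with Benjamini-Hochberg adjustment over 156 genes), 46 of them higher (29.5%) and 64 lower (41%) at the 2-cell stage, and these shares are the background of each gene group given here. The labels do not say which zygotes came from the same female, so the p-values measure the spread between these samples. The median difference over all genes was −0.33. The split into rises and falls depended on the scaling, as the control genes fell by unequal amounts. Before scaling Hnrnpr differed by −2.15, Ssu72 by −2.84 and Ube2e1 by −4.01. Relative to their own mean, where their differences must cancel, they differed by 0.85 ± 0.13 (SE), 0.16 ± 0.14 and −1.01 ± 0.14. Without Hnrnpr in the control mean 55 genes were higher and 46 lower, and with no scaling 23 were higher and 111 lower. Most units come from samples labelled as blastomeres, so values with no scaling set whole zygotes against parts of embryos.

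A gene without a signal takes the control level of its sample with the sign turned, on average −17.07 in zygotes and −14.06 in 2-cell units, and thus appears higher at the 2-cell stage. Sizes are therefore given for the 93 genes detected in all 35 samples, of which 23 were higher and 46 lower. In 19 of the 93 (20.4%) the 14 zygotes and the 21 2-cell samples did not overlap, 9 being higher and 10 lower. List counts come from the test on all values, undetected ones included. For named genes among the other 63, the number of samples with a signal, the floored difference or both are given. For the floored difference, values below −10, the study's threshold of expression, were set to −10. Samples set to −10 no longer differ from each other. The p-values of floored differences leave out that spread and can be much smaller than those without the floor.

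Before scaling, the control genes were lower at the 2-cell stage. Their mean of 30 minus Ct lay between 16.60 and 18.10 in zygotes (median 16.95) and between 12.07 and 16.31 in the 8 units (median 13.84), a difference of −3.001 (exact permutation test, two-sided, p = 3.13e-06, the smallest that the design allows). In the 3 2-cell embryos it was 16.31, 16.19 and 13.94, a difference of −1.59 from the zygotes (exact permutation test, two-sided, p = 0.00147, the smallest possible). The embryo 2c.e3 stood apart, and its level lay within the range of 15 single blastomeres, 11.25 to 14.32. Without 2c.e3 the difference was −0.82 (exact permutation test, p = 0.0333). Zygotes without the letter A had 17.65 to 18.10 and those with it had a median of 16.80. Between the 3 zygotes and the 3 embryos without the letter the difference was −2.39 (exact permutation test, p = 0.1, the smallest that 3 against 3 allows).

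**Figure D1:**
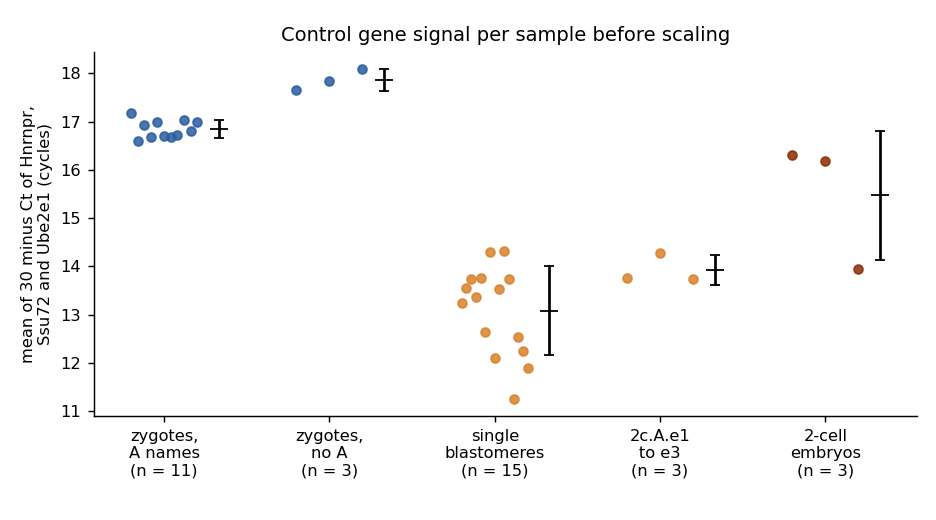
Mean of 30 minus Ct over Hnrnpr, Ssu72 and Ube2e1 (y axis, PCR cycles) in each sample, by kind of sample (x axis), with mean and SD beside the points. All zygotes lie at or above 16.60, the 15 single blastomeres at or below 14.32, and 2c.e3 at 13.94 lies apart from the other 2-cell embryos.

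In the heterochromatin pathway, HP1 proteins bind histone H3 methylated at lysine 9 (H3K9), and the paralogues Suv39h1 and Suv39h2 set this mark in constitutive heterochromatin. Both families contained a gene that rose and a gene that fell, and the promoters of these pairs are shown for that reason. They run from 250 bases before to 50 bases after the annotated start in the direction of the gene (RefSeq, GRCm38.p6). For Cbx3 and Suv39h1 2 starts are listed, of which the first is given. Capitals mark the CCAAT box (CCAAT), the GC box (GGGCGG) and an ETS-type motif (CGGAAG) on either strand.
Cbx1 promoter, chr11:96788885-96789184, plus strand: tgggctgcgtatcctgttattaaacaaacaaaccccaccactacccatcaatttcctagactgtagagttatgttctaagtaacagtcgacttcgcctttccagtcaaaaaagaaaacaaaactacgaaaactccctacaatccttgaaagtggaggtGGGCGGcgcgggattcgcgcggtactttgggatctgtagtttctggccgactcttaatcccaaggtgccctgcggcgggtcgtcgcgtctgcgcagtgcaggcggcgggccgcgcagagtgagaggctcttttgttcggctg
Cbx3 promoter, chr6:51470366-51470665, plus strand: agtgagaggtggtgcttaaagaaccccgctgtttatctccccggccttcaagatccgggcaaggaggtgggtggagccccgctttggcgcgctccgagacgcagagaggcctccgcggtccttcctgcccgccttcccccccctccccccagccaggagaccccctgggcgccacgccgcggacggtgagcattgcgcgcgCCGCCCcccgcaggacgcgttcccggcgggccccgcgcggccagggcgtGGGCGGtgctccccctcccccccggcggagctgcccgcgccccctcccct
Suv39h2 promoter, chr2:3474937-3475236, minus strand: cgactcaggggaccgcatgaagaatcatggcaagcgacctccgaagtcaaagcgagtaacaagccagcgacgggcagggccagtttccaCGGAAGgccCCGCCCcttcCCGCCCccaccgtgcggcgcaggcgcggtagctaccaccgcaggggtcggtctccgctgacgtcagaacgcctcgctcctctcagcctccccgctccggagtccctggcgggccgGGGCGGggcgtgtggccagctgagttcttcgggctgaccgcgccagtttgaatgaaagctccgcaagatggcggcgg
Suv39h1 promoter, chrX:8074711-8075010, minus strand: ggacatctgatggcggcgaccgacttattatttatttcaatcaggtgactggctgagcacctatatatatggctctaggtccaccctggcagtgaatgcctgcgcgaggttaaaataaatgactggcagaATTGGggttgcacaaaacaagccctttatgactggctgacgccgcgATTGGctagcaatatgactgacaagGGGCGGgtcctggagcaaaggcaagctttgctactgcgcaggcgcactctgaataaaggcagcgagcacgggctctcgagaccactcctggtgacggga
The GC box occurs in all 4 windows, 1 time each in Cbx1 and Suv39h1, 2 times in Cbx3 and 3 times in Suv39h2. The CCAAT box was found only in the Suv39h1 window, 2 times, and the ETS-type motif only in the Suv39h2 window. No window holds TATAAA, which was searched in the same way. Of the 156 genes, 123 had a promoter in the table, and the GC box was present in 65.7% of the 35 that were higher, 67.3% of the 49 that were lower and 66.7% of the 39 that did not pass. The CCAAT box was present in 37.1%, 57.1% and 38.5% of the same groups, the ETS-type motif in 11.4%, 24.5% and 23.1%, and TATAAA in 11.4%, 4.08% and 0%. Over the first promoter of all 27025 genes in the table these shares were 35.9% for the GC box, 37.9% for the CCAAT box, 17.17% for the ETS-type motif and 14.2% for TATAAA. A match describes the letters of the window and is not a measured site.

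All 3 HP1 genes changed, 1 higher and 2 lower. Cbx1 fell, with a difference of −2.57 ± 0.16 (SE, adjusted p = 4.80e-12). Cbx5, which encodes HP1 alpha, lay between 1.23 and 2.31 in zygotes (median 2.00) and between 0.03 and 2.29 in 2-cell samples (median 1.16). Its difference was −0.79 ± 0.17 (adjusted p = 2.88e-04), and the stages overlapped. Among the samples without the letter A the difference of Cbx5 was 0.08, against −1.17 among those with it. Of the embryos without the letter, 2c.e3 was at 2.12 and the others at 1.35 and 1.30. At the 2-cell stage Cbx3 was present in every blastomere measured.

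All 6 genes of H3K9 methylation changed, 4 higher and 2 lower. Suv39h2 lay between 1.35 and 2.66 in zygotes (median 2.39) and between −2.13 and 1.30 in 2-cell samples (median −0.10), without overlap, a difference of −2.77 ± 0.32 (adjusted p = 1.22e-07). Suv39h1 was detected in 5 of 14 zygotes, at no more than −9.06, and in 20 of 21 2-cell samples, with a median of −2.13. The sample that lacked it was the embryo 2c.e3. Its floored difference was 6.04 (adjusted p = 1.35e-07). Ehmt2, which encodes the H3K9 dimethyltransferase G9a, was detected in 10 of 14 zygotes (median −9.79) and 20 of 21 2-cell samples (median −4.18), a floored difference of 4.33 (adjusted p = 1.33e-07). The methyltransferase gene Setdb1 fell, with a difference of −1.09 ± 0.33, while Trim28, a corepressor gene whose product recruits it, rose by 0.62 ± 0.20 (adjusted p = 0.00545 and 0.00947). Setdb2 was higher by 0.52 ± 0.22 (adjusted p = 0.0419), a call kept in 10 of 22 fits that left out 1 zygote or unit and lost in 9 of 23 other alternatives. The call of Trim28 was lost in 5 of 23. With no scaling, the differences of Trim28 and Setdb2 were −2.38 and −2.49, both past the threshold.

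**Figure D2:**
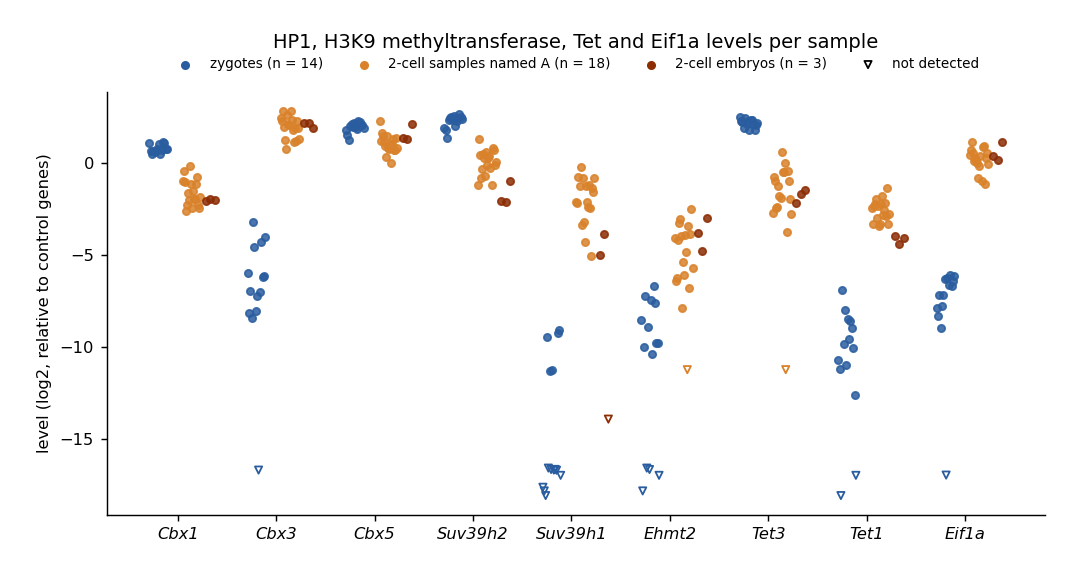
Level relative to the control genes (y axis, log2) of 9 genes in 14 zygotes (blue), 18 2-cell samples named with A (orange) and 3 2-cell embryos (brown). Points are samples and open triangles are samples in which the gene was not detected. Cbx1, Suv39h2 and Tet3 lie higher in zygotes, and Cbx3, Tet1 and Eif1a lie higher at the 2-cell stage, without overlap.

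Among genes detected in all 35 samples, the largest rise was that of Tead4, a TEAD factor required for the trophectoderm. It lay between −9.40 and −7.14 in zygotes (median −8.19) and between −2.89 and 0.62 in 2-cell samples (median −1.24), a difference of 7.41 ± 0.38 (SE, adjusted p = 2.43e-13). The H3K4 demethylase gene Kdm5b lay between −2.78 and −1.05 in zygotes (median −2.09) and between 1.95 and 5.36 in 2-cell samples (median 3.71), a difference of 5.85 ± 0.33 (adjusted p = 1.25e-12). Hdac1, which encodes a histone deacetylase, lay between −3.05 and −1.92 in zygotes (median −2.22) and between 0.56 and 3.56 in 2-cell samples (median 2.60), a difference of 4.93 ± 0.28 (adjusted p = 1.25e-12). All 3 were higher in every 2-cell sample than in any zygote, and they were higher without scaling as well, by 4.41, 2.85 and 1.93.

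The PRDM zinc finger genes Prdm15 and Prdm10, the H3K9 demethylase gene Kdm3a and Tbx3, a T-box factor of naive pluripotency, followed. Prdm15 lay between −7.50 and −5.66 in zygotes (median −6.56) and between −3.29 and −0.67 in 2-cell samples (median −1.91). Prdm10 lay between −7.76 and −5.07 in zygotes (median −5.58) and between −3.79 and 0.09 in 2-cell samples (median −1.22). Their differences were 4.59 ± 0.33 and 4.46 ± 0.40, and neither gene overlapped between the stages. Kdm3a lay between −4.02 and −2.19 in zygotes (median −3.24) and between −0.67 and 2.68 in 2-cell samples (median 1.15). Tbx3 lay between −4.89 and −3.66 in zygotes (median −4.37) and between −1.76 and 0.31 in 2-cell samples (median −0.72). These genes, with differences of 4.13 ± 0.28 and 3.71 ± 0.20, did not overlap either. With no scaling Tbx3 differed by 0.71 and did not pass the threshold (adjusted p = 0.157). Against the 2-cell embryos alone, also unscaled, its difference was 1.14 to 2.90 with 1 embryo left out (limma adjusted p up to 0.0936).

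Smyd5, a SET and MYND domain gene, lay between −3.91 and −2.02 in zygotes (median −2.98) and between −3.02 and 2.33 in 2-cell samples (median 0.84), with overlap, a difference of 3.04 ± 0.48 (adjusted p = 6.65e-06). With no scaling its difference was 0.04 (adjusted p = 0.959). Against the 2-cell embryos alone, also unscaled, the difference was 2.08 to 3.03 with 1 embryo left out. The H4K20 methyltransferase gene Suv420h1 and Jmjd4, a gene of the JmjC family, completed the 10 largest rises with 2.71 ± 0.36 and 2.66 ± 0.28, both without overlap. Without scaling the differences of these genes were −0.29 and −0.35 and did not pass the threshold.

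Among the falls, Dazl, which encodes an RNA-binding protein of germ cells, came first. It lay between 3.01 and 3.71 in zygotes (median 3.26) and between −2.69 and 1.37 in 2-cell samples (median −0.43), a difference of −3.77 ± 0.26 (SE, adjusted p = 1.71e-11). Dmap1, which encodes a partner of the maintenance methyltransferase Dnmt1, lay between −0.31 and 0.63 in zygotes (median 0.11) and between −4.58 and −1.84 in 2-cell samples (median −2.90), a difference of −3.29 ± 0.23. The histone H3-H4 chaperone gene ASF1A lay between 2.79 and 3.89 in zygotes (median 3.28) and between −1.56 and 1.19 in 2-cell samples (median −0.03), a difference of −3.12 ± 0.19. In none of the 3 did a 2-cell sample reach the level of a zygote.

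Eed, whose product binds trimethylated H3K27 within PRC2, lay between 3.28 and 4.56 in zygotes (median 4.22) and between 0.22 and 2.37 in 2-cell samples (median 1.31), a difference of −2.79 ± 0.22. Kdm2b, which encodes a demethylase that recruits a variant PRC1 to CpG islands, differed by −2.32 ± 0.29, and H3f3a, a gene for histone H3.3, by −2.03 ± 0.18. These 3 genes, too, did not overlap between the stages. Mapk3, which encodes the kinase ERK1, and Pcgf1, the RING finger partner of Kdm2b, fell with differences of −2.63 ± 0.39 and −2.03 ± 0.27, but some 2-cell samples reached the zygotes. Within the samples named with A and those without, Mapk3 differed by −1.86 and −3.69, and whether these values differ was not tested.

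**Figure D3:**
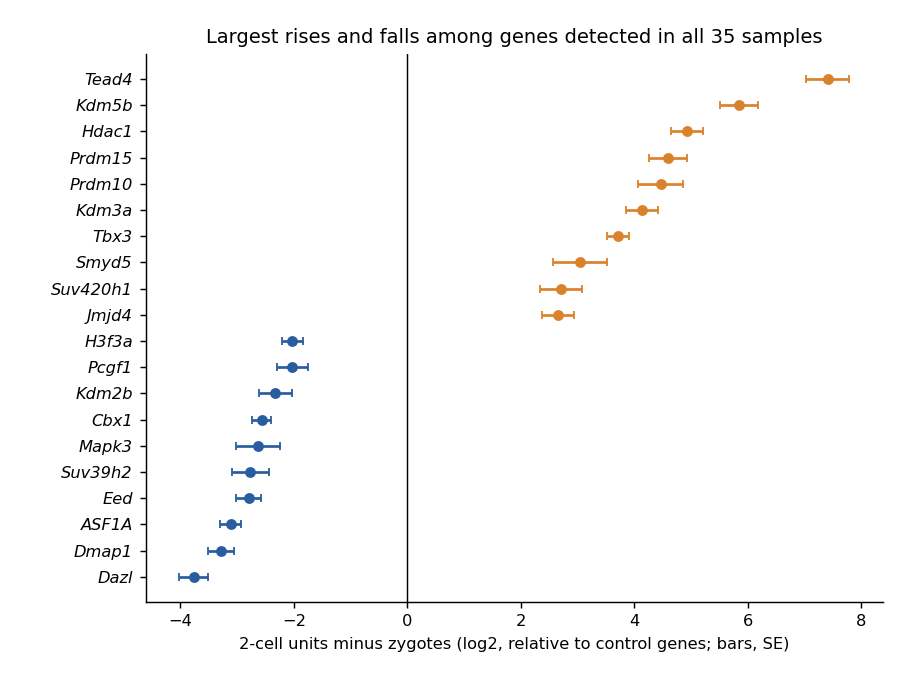
Difference between the 8 2-cell units and 14 zygotes (x axis, log2 relative to the control genes) of the 10 largest rises and the 10 largest falls (y axis) among changed genes detected in all 35 samples. Points are differences and bars are SE. Rises reach 7.41 for Tead4 and falls reach −3.77 for Dazl.

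PRC2, the complex that methylates H3K27, was represented by 7 genes, of which 5 were lower and 1 higher (median difference −1.39). The catalytic subunit genes Ezh2 and Ezh1 differed by −1.39 ± 0.18 and −1.08 ± 0.21 (adjusted p = 5.79e-07 and 8.55e-05), with overlap. For Ezh1 the difference was −1.51 with the letter A and −0.03 without it. Among the embryos without the letter, 2c.e3 was at 2.26 and the others at 1.19 and 1.18. The core subunit gene Suz12 had medians of 4.84 and 4.70 and differed by −0.17 ± 0.20 (adjusted p = 0.436). Among accessory subunits, Jarid2 was detected in all zygotes and 19 of 21 2-cell samples, a floored difference of −1.60, and Phf19 in all zygotes and 11 of 21 2-cell samples, a floored difference of −2.57. Mtf2, a paralogue of Phf19, rose by 1.90 ± 0.34 (adjusted p = 3.62e-05), and with no scaling its difference was −1.10 and past the threshold.

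Of 12 genes for PRC1, the ubiquitin ligase complex for histone H2A, and for the DNA-binding complex PhoRC, 5 were lower and 1 higher (median difference −0.47). The chromodomain gene Cbx7 was detected in all zygotes between −7.98 and −6.07, and in 5 of 21 2-cell samples. Among these were the 2-cell embryos 2c.e1 and 2c.e2, at −8.60 and −8.68. Scmh1 differed by −1.99 ± 0.23 (adjusted p = 1.14e-07). The gene that rose was Yy1, which encodes the DNA-binding subunit of PhoRC. It lay at no more than −0.33 in zygotes and at 1.98 or more in 2-cell samples, a floored difference of 4.45 (adjusted p = 7.49e-05). The zygote zyg.7 lacked it, and without that zygote the difference was 3.79. With no scaling the difference over all zygotes was 1.93 and did not pass the threshold (adjusted p = 0.234).

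Of 7 genes of DNA methylation, 4 were lower and 1 higher (median difference −1.09). Tet3 and Tet1, which encode enzymes that oxidise 5-methylcytosine, moved in opposite directions. Tet3 had a floored difference of −4.06 (adjusted p = 1.24e-10). Tet1 was detected in 12 of 14 zygotes at no more than −6.93, and in all 2-cell samples at −4.43 or more, a floored difference of 6.20 (adjusted p = 4.34e-12). The de novo methyltransferase gene Dnmt3a and Dppa3, whose product protects the maternal genome from demethylation, differed by −1.93 ± 0.43 and −1.09 ± 0.14 (adjusted p = 3.77e-04 and 6.82e-07). Dnmt3b, the second de novo methyltransferase gene, differed by −0.60 ± 0.30 and Hells, a remodeller gene, by −0.24 ± 0.30, neither past the threshold (adjusted p = 0.0765 and 0.495). Dnmt3b passed it in 11 of 23 alternatives and Hells in 4.

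Histone demethylases moved both ways, 9 of 24 higher and 9 lower (median difference −0.23). Kdm4c, whose product acts on H3K9 and H3K36, had medians of −6.90 and 1.28 and a floored difference of 8.15 (adjusted p = 1.17e-13). The H3K4 demethylase gene Kdm5a had medians of −7.26 and 0.53 and a floored difference of 7.76 (adjusted p = 1.02e-12). Each was absent from 1 zygote, and neither overlapped between the stages. The JmjC gene 2410016O06Rik was detected in 6 of 14 zygotes and 16 of 21 2-cell samples, the 3 2-cell embryos among them. Jmjd8, another JmjC gene, was named after its values were seen. It was detected in all zygotes between −5.16 and −4.17 and in 6 of 21 2-cell samples at no more than −5.79, a floored difference of −5.12 (adjusted p = 1.26e-16).

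Of 9 genes of H3K4 methylation, 2 were higher and 3 lower (median difference 0.04). Cxxc1, which encodes the CpG-binding subunit of the SET1 complex, and the catalytic Setd1b differed by −1.99 ± 0.20 and −1.71 ± 0.20 (adjusted p = 1.34e-08 and 1.02e-07). Mll3 rose by 2.09 ± 0.58 (adjusted p = 0.00277), and with no scaling its difference was −0.91 and did not pass. Setd7 was detected in 3 of 14 zygotes and 4 of 21 2-cell samples, and its floored difference of 0.86 did not pass the threshold (adjusted p = 0.0678).

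Of 6 genes of H3K36 methylation, Nsd1 and Ash1l were lower, with differences of −1.995 ± 0.24 and −0.89 ± 0.23 (adjusted p = 2.18e-07 and 0.00161). Whsc1 differed by −0.51 ± 0.27 and Whsc1l1 by 0.33 ± 0.31, and Setd3 had a floored difference of −0.63, none past the threshold. Setd2, whose product sets trimethylation, was lacking in the zygote zyg.12 only. With that zygote its difference was 2.20 ± 1.69 (adjusted p = 0.251), and without it 0.90 (adjusted p = 0.00271). Over all zygotes with no scaling the difference of Setd2 was −0.80 (limma adjusted p = 0.654). Of the 3 H4K20 methyltransferase genes only Suv420h1 passed the threshold. Suv420h2 was detected in 13 of 21 2-cell samples, and Setd8, which encodes the monomethyltransferase, had a floored difference of 0.21.

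The list of SMYD, SETD and PRDM genes, proven or putative lysine methyltransferases, also holds the arginine methyltransferase gene Carm1. It had 6 rises and 8 falls among 16 genes. Carm1 was among the rises, as was Smyd1, which lost its call with the floor. Prdm14, a regulator of pluripotency and germ cells, was detected in 7 of 14 zygotes and 18 of 21 2-cell samples, a floored difference of 4.22 (adjusted p = 6.25e-07). Smyd2, Prdm6 and Smyd4 were detected in all zygotes, with medians of −2.38, −3.51 and −3.87, and in 14, 11 and 15 of 21 2-cell samples. Their floored differences were −4.98, −4.63 and −3.19. Among the 3 2-cell embryos, Smyd2 was detected in 2, and Prdm6 and Smyd4 in 1 each.

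Of 8 genes for histone H3.3, its chaperones and remodellers, 6 were lower and 0 higher (median difference −1.15). DAXX, an H3.3 chaperone gene, had a floored difference of −1.68, and Atrx, the gene of its partner, differed by −1.42 ± 0.16 (adjusted p = 2.94e-04 and 1.05e-07). H3f3b, which encodes the same H3.3 protein as H3f3a, differed by −0.59 ± 0.20 (adjusted p = 0.0115) and was named after its values were seen. Of 6 genes for acetylation, Hdac1 and the deacetylase gene Sirt1 were higher, the latter by 1.29 ± 0.35 (adjusted p = 0.00263), and with no scaling the difference of Sirt1 was −1.71 and past the threshold. Tada3, which encodes a subunit of acetyltransferase complexes, the histone acetyltransferase gene Hat1 and Hdac4 were lower, with differences of −2.01 ± 0.31, −1.92 ± 0.22 and −0.87 ± 0.34. The call of Hdac4 (adjusted p = 0.0252) was kept in 19 of 22 fits that left out 1 zygote or unit and lost in 8 of 23 other alternatives. Tada2a differed by −0.36 ± 0.32 (adjusted p = 0.337).

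**Figure D4:**
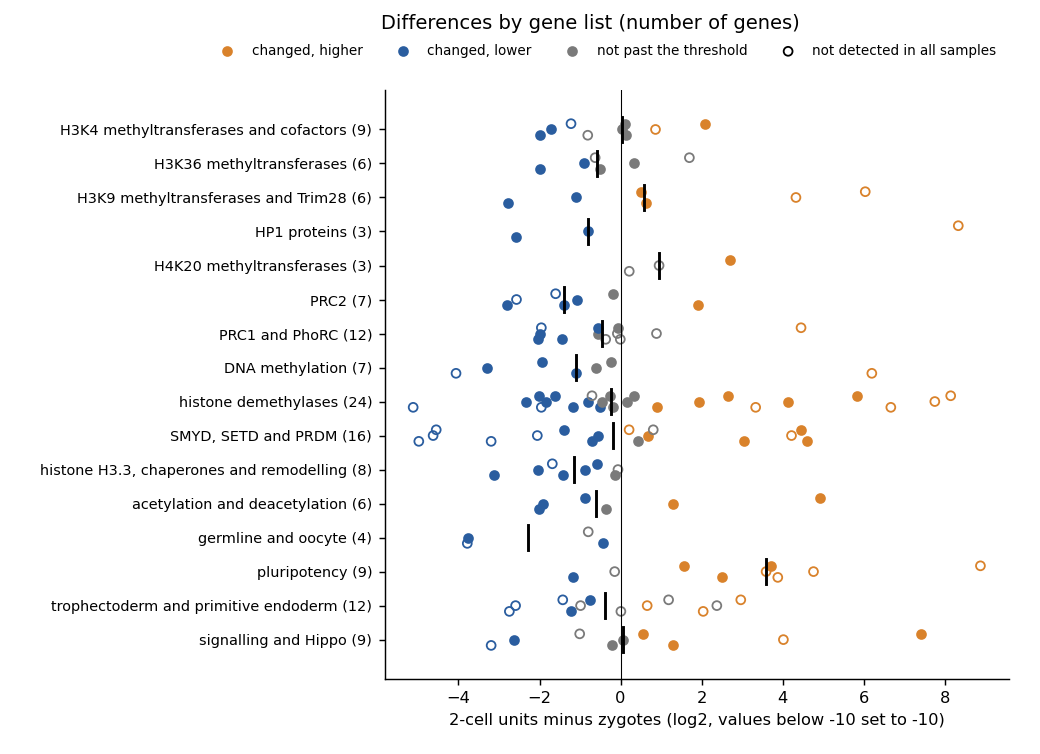
Floored difference between 2-cell units and zygotes (x axis, log2) of the genes of 16 lists (y axis, with the number of genes). Points are genes, orange where higher, blue where lower and grey where the test was not passed, open where a gene was not detected in all 35 samples, and black bars are medians. The median is highest for pluripotency genes, at 3.59, and lowest for germline genes, at −2.28.

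Of 9 pluripotency genes, 7 were higher and 1 lower, with a median floored difference of 3.59 against −0.25 over all genes. Esrrb, which encodes an orphan nuclear receptor, was detected in 5 of 14 zygotes at no more than −8.95 and in 20 of 21 2-cell samples at a median of −1.40, a floored difference of 8.88 (adjusted p = 1.20e-15). Nanog, a homeobox gene of the epiblast, was detected in 2 of 14 zygotes and 16 of 21 2-cell samples, and Zfp42 (Rex1) in 12 of 14 zygotes and 21 of 21 2-cell samples, with floored differences of 3.88 and 4.76. Fgf4, which encodes a growth factor of pluripotent cells, was detected in 1 of 14 zygotes and 9 of 21 2-cell samples, at 30 minus Ct of 11.27, 11.51 and 12.48 in the 3 2-cell embryos against 7.13 in that zygote. The Krüppel-like factor genes Klf2 and Klf4 were higher by 2.51 ± 0.56 and 1.57 ± 0.22, and with no scaling their differences were −0.50 and −1.43. Against the 2-cell embryos alone, also unscaled and with 1 embryo left out, they differed by 2.51 to 3.89 and by −0.04 to 0.96. Pou5f1 (Oct4), also a maternal transcript, differed by −1.17 ± 0.25 (adjusted p = 2.72e-04), with medians of 3.61 and 2.24, and Sox2 had a floored difference of −0.14 (adjusted p = 0.850). Klf2, Klf4, Pou5f1 and Sox2 were named after their values were seen.

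Of 4 germline and oocyte genes, 3 were lower (median difference −2.10). Dppa1 lay between −0.76 and 0.22 in zygotes (median −0.20), and its highest level in a 2-cell sample was −2.68, a floored difference of −3.78 (adjusted p = 2.82e-14). Brdt, which encodes a bromodomain protein of germ cells, differed by −0.44 ± 0.17 (adjusted p = 0.0232), a call kept in 20 of 22 fits that left out 1 zygote or unit and lost in 9 of 23 other alternatives. ZP3 was lacking in the zygote zyg.9. With that zygote its difference was −0.36 ± 1.64 (adjusted p = 0.851), and without it −1.62 (adjusted p = 2.16e-06).

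The list of trophectoderm and primitive endoderm genes was sparse: of 12, 3 were higher and 5 lower, and only 2 were detected in all 35 samples. Pecam1, which the paper places in its core ICM (inner cell mass) set, was on this list too. It was among the lower genes and among those detected in all samples. Gata3, later a trophectoderm factor, was detected in all zygotes between −7.28 and −5.36 and in 5 of 21 2-cell samples, a floored difference of −2.74 (adjusted p = 6.94e-07). The 2-cell embryos 2c.e1 and 2c.e2 were among the samples with Gata3, at −7.39 and −7.87. Hand1 and the keratin gene Krt19 were detected in 0 and 0 of 14 zygotes and in 4 and 3 of 21 2-cell samples. In the 2-cell embryos 2c.e1 and 2c.e2 Hand1 was at −2.12 and −4.28. Krt19 did not pass the threshold with the floor (adjusted p = 0.153). The tetraspanin gene Tspan8 was detected in 13 of 14 zygotes and 17 of 21 2-cell samples, a floored difference of 2.97, and with no scaling its difference was 0.40 and did not pass the threshold (adjusted p = 0.695). Of 9 signalling and Hippo genes, 4 were higher and 2 lower. The growth factor receptor gene Fgfr2 was detected in all zygotes (median −3.01) and in 20 of 21 2-cell samples (median −4.99), and Fgfr3 in 4 of 14 zygotes and 10 of 21 2-cell samples. Their floored differences were −3.19 and 4.02 (adjusted p = 3.70e-05 and 1.03e-04).

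**Figure D5:**
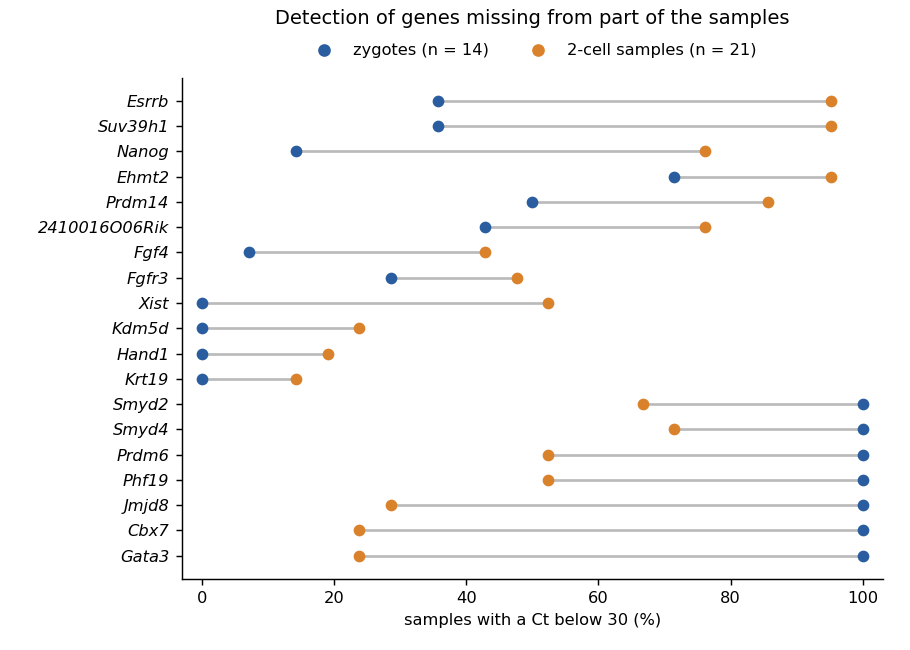
Share of samples with a Ct below 30 (x axis, %) among 14 zygotes and 21 2-cell samples for 19 genes (y axis) without a signal in some samples. Esrrb and Suv39h1 were detected in 5 of 14 zygotes and 20 of 21 2-cell samples each, and Jmjd8, Cbx7 and Gata3 in all zygotes and in 6, 5 and 5 of 21 2-cell samples. Detection is not scaled, and the control level was lower in 2-cell samples than in zygotes.

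Xist, the noncoding RNA that coats the inactive X chromosome, was detected in 0 of 14 zygotes and 11 of 21 2-cell samples, at levels from −6.59 to −0.75 (median −4.14). Kdm5d, a Y-linked H3K4 demethylase gene, was detected in 0 of 14 zygotes and 5 of 21 2-cell samples, at −3.24 to 0.16 (median −2.41). No sample showed both, and 5 showed neither, among them 2c.A.e1 and the sisters 2c.A.e1b1 and 2c.A.e1b2. Of the 2-cell embryos, 2c.e2 showed Xist, and 2c.e1 and 2c.e3 showed Kdm5d. Xist was named after its values were seen.

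A zygote and a 2-cell embryo are each a whole embryo, so the 3 samples labelled 2-cell embryo were also compared with the 14 zygotes on 30 minus Ct without scaling. The labels and methods mention no RNA added to the embryos at lysis, and a lower RNA content and a lower recovery cannot be told apart. Of 156 genes 120 changed (76.9%; limma), 27 higher (17.3%) and 93 lower (59.6%), with a median difference of −1.79. Without 2c.e3, 26 were higher and 79 lower, with a median of −1.34. Both comparisons use the same zygotes, and their values are given side by side. Tead4 was at 15.02, 16.09 and 12.70 in the 3 embryos and at 7.202 to 10.05 in zygotes, a difference of 5.97 ± 0.66 (SE, adjusted p = 3.86e-07) against 7.41 relative to the controls. Esrrb was at 15.39, 16.43 and 15.65, and at most at 8.02 in zygotes. Both genes were higher in each of the 3 embryos than in any zygote. How many of the 156 genes separated in either direction in this comparison was not counted.

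Dazl was at 15.56, 15.78 and 14.44 in the embryos and 19.61 to 21.55 in zygotes, a difference of −5.12 ± 0.39 (adjusted p = 5.23e-09). Suv39h2 was at 14.23, 14.05 and 12.94 and 18.75 to 19.70, a difference of −5.59 ± 0.25, and Mapk3 at 14.06, 14.13 and 13.03 and 18.58 to 20.29, a difference of −5.69 ± 0.35. None of the 3 overlapped. The mean of the control genes did not overlap either, being lower in each embryo (at most 16.31) than in any zygote (at least 16.60). The share of all genes without overlap was not counted here. Suv420h1, Mtf2 and Trim28, which were higher relative to the controls, differed per embryo by 0.07 ± 0.27, 0.38 ± 0.41 and −0.65 ± 0.39, none past the threshold (adjusted p = 0.830, 0.406 and 0.136). For Suv39h1 the difference per embryo was 5.41 ± 2.50 (adjusted p = 0.0587), and without 2c.e3, which lacked it, 9.35 (adjusted p = 0.00297).

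The named sister blastomeres show how far samples of one embryo differed, with the error of the measurement included. Between 2c.A.e1b1 and 2c.A.e1b2 the median absolute difference was 0.52 over 121 genes detected in both, and 17 genes, Tet3 among them, were detected in 1 sister only. The control mean was 11.25 in 2c.A.e1b1, the lowest of the single blastomeres, and 12.53 in 2c.A.e1b2. Between 2c.A.e5b1 and 2c.A.e5b2 it was 0.55 over 125 genes, and 15 genes, Xist among them, were detected in 1 sister only. Over the 93 genes detected in all samples, the sisters differed by a median of 0.36 and 0.55, and the stages by a median absolute difference of 1.09. The median SD over these genes was 0.36 among zygotes and 0.67 among 2-cell units.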

How the data were processed

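Cells and embryos were lysed in the reaction mix, reverse transcribed and preamplified with primers of all assays, and run on BioMark chips with EvaGreen. The authors deposited the cycle threshold (Ct), a score in PCR cycles, for 192 assays, with undetected genes set to 30 (2 of the values used here lay above it). The authors also deposited a normalized log2 table, which equals 30 minus Ct minus the mean over Gapdh, Hspa8 and Lmnb1, in contrast to the 3 control genes of their methods. The latter (Hnrnpr, Ssu72, Ube2e1) were used here. The 36 assays marked as failed were left out. qPCR has no read depth, so sensitivity is given by the controls and by undetected genes.

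Zygotes (n = 14) were compared with 8 units of the 2-cell stage by limma 3.58.1 (lmFit and eBayes, R 4.3.3), two-sided, with Benjamini-Hochberg adjustment over 156 genes and a threshold of 0.05. Only these 2 stages entered the fit. Single values were compared by exact permutation over samples (Python 3.11.15, numpy 2.4.6, pandas 2.3.3). The fit was tested on simulated data. Named genes are the 4 markers, the 10 largest rises and falls among changed genes detected in all samples, genes detected in at most 1 of 14 zygotes and at least 7 of 8 units or the reverse (at least 13 zygotes and at most 1 unit), the 4 largest differences of each list, all members of lists of up to 7 genes, and the controls. The members and lists were chosen with earlier results of these data known. Alternatives changed the scaling, the treatment of undetected values, the assays, the units, the samples and the test. Those that took undetected values as missing, and those on the control genes that left out single units or used one set of names, were chosen after seeing the data. Of the 156 assays, 155 matched RefSeq (GRCm38.p6) by name, 144 by symbol and 11 by synonym, and Mll2 matched several genes. Zygotes were matched to the study's sample names by identical values. Columns of other stages entered only an alternative that fitted all stages together, in which 107 genes changed, 46 higher and 61 lower.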

Additional observations from a re-analysis of the deposited data

Results flagged for a closer look

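Over the 8 2-cell units, 1 unit stood far from the others by Dixon's criterion in 12 of 94 values tested. For independent normal values the criterion flags about 1 in 20. The values here share units and control genes, and some include undetected samples, so the count cannot be set against that rate. In 5 of the 12 the unit was the whole embryo 2c.e3, whose control genes were also low. Its level was −13.9 for Suv39h1, which was not detected there (−5.06 to −1.17 in the other units), 2.12 for Cbx5 (0.69 to 1.35), 2.26 for Ezh1 (0.46 to 1.23), 0.91 for Dnmt3b (−2.05 to −0.72) and −5.36 for Krt19 (−16.31 to −12.07). In 4 the unit was 2c.A.e2, with −1.12 for Eif1a (0.17 to 1.16), 0.56 for Hdac1 (2.16 to 3.56), −1.28 for Kdm4c (0.83 to 2.50) and −0.0738 for Setd1b (−1.54 to −0.88). In the unit 2c.A.e1, Tet3 was at −4.99 (−2.38 to −0.43) and DAXX at −6.12 (−1.57 to −0.51), means that include 1 sample each without a signal. Fgfr2 was not detected in 2c.A.e3, at −13.7 (−7.89 to −4.24). The control genes lay at 13.94 cycles in 2c.e3 and between 16.19 and 16.31 in the other 2-cell embryos, and the part of this level in these values was not tested.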

How the results depend on the processing

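Between zygotes and 2-cell units the count of changed genes stayed within 1.5 times of 110 under every scaling, whereas their split did not. Of 80 named genes that changed, 69 kept their direction in every alternative in which they were tested (21 to 23 a gene), and 76 kept their call whenever 1 zygote or unit was left out. With no normalization, where units mostly of blastomeres stood against whole zygotes, 23 genes were higher and 111 lower (median difference −3.33). This takes the control level out of the scale, and 14 of the named genes turned sign with a call in at least 1 of the 2 settings: Suv420h1 (−0.29), Jmjd4 (−0.35), Setdb2 (−2.49), Trim28 (−2.38), Setd8 (−2.81), Suv420h2 (−2.27), Mtf2 (−1.10), Sirt1 (−1.71), Mll3 (−0.91), Whsc1l1 (−2.67), Klf2 (−0.50), Klf4 (−1.43), Hnrnpr (−2.15) and Ssu72 (−2.84). Setd2 (−0.80) turned sign as well, without a call in either. Tbx3, Smyd5, Yy1, Krt19, Tspan8 and Setd7 kept their sign there and lost their call. The median difference was 0.0913 without Hnrnpr among the controls, −0.84 without Ube2e1, −0.78 in the deposited normalized table and −0.0049 after scaling to the sample median. These settings gave 55 higher and 46 lower genes, 40 and 85, 40 and 80, and 56 and 54. Ssu72 was at −0.34 without Ube2e1 and at −0.28 with only the 3 2-cell embryos.

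Among the 93 genes detected in all samples, fewer being tested, 70 changed and 23 were higher. With only the samples named without A, which are 3 against 3, 69 genes changed, 32 were lower, the median was 0.0877 and Cbx5 was at 0.0763. The control genes differed by −2.39 in that setting against either set of 2-cell samples (exact permutation test, p = 0.1, the smallest possible). The cause was not tested. With values below −10 set to −10, Krt19, Rbp2, Setd7 and Smyd1 lost their call, Elf5, Pdgfra and Setd4 gained one, and 0 changed genes turned sign.

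For 2-cell embryos without scaling, 16 genes were higher against only the zygotes named without A, and 10 among genes detected in all samples. After subtraction of the control mean 49 were higher and 59 lower, with a median of −0.20. Among named genes with a call in at least 1 of these 2 settings, Setdb2 (0.49), Trim28 (0.93), Setd8 (0.52), Dnmt3b (0.24), Sirt1 (0.78) and Hnrnpr (1.08) turned sign.

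With 1 zygote or unit left out, 107 to 113 genes changed, 43 to 48 higher and 62 to 70 lower, with a median of −0.39 to −0.24. For the embryos without scaling the ranges were 105 to 119, 20 to 26 and 79 to 99, with a median of −2.10 to −1.34. The control genes then differed by −3.32 to −2.72 over the units and by −2.004 to −0.82 over the embryos. With 2c.A.e1 as its own unit, apart from 2c.A.e1b1 and 2c.A.e1b2, 110 genes changed, 45 higher and 65 lower. With the replicate number as a block over all samples 111 genes changed, 48 higher and 63 lower. Samples that share a number share only that: the correlation of their deviations had a median of 0.04 over 17 pairs and was over 0.1 in 7, and 0 samples correlated best with their own number. Over all alternatives besides leaving out 1 sample, the call was lost most often for Setdb2, Brdt and Setd7 (9 each), Hdac4 (8), and Trim28 and H3f3b (5 each), whereas Dnmt3b gained one in 11, and Setd3, Whsc1 and Whsc1l1 in 6 each. Undetected genes limit all sizes, as no level is measured at a Ct of 30 or later.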

Other observations

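In all, 13 genes were detected in every zygote but 1, and the gaps fell on 9 zygotes. Scml2 (absent from zyg.8), Setd2 (zyg.12), Yy1 (zyg.7) and ZP3 (zyg.9) were far from the limit of detection in the other zygotes, with lowest levels of −0.49, 0.09, −1.75 and 0.57. For the Polycomb gene Scml2 the difference between the stages was 0.42 (limma adjusted p = 0.825) with that zygote and −0.82 (adjusted p = 0.0294) without it.

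Elf5, a transcription factor of the trophectoderm lineage, was the only gene of the panel not detected in any 2-cell sample. It was detected in 9 of 14 zygotes at no more than −7.17 and in 0 of 21 2-cell samples, a floored difference of −0.99 (limma adjusted p = 0.0173).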
